A study of Homo sapiens with 10 samples.

Results

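The peaks described here are m6A peaks whose summits lay in 13 windows beside the centromeres of chromosomes 1, 2, 4, 7, 9, 10, 16, 17, 20, 21 and 22. The windows are fixed positions on build hg19, and every peak with its summit in one was taken, whatever its values. Of 37417 peaks on chromosomes 1 to 22, X and Y in 5 lists, 1785 had a summit in a window, or 4.77%. The windows add up to 44.5 Mb, or 1.44% of the chromosome spans, any unassembled stretches included in both. On chromosome 1 they run from 121 to 122 Mb (called 1p here) and from 142.5 to 145 Mb (1q). The others run from 89 to 93 Mb on chromosome 2, from 48.5 to 53 Mb on chromosome 4, from 57 to 63 Mb on chromosome 7, from 65 to 71 Mb on chromosome 9 and from 38 to 43 Mb on chromosome 10. On chromosome 16 they run from 33 to 35.4 Mb (16p) and from 46.3 to 47 Mb (16q). The last 4 run from 21.5 to 26 Mb on chromosome 17, from 25.5 to 30 Mb on chromosome 20, from 9.4 to 11.3 Mb on chromosome 21 and from 16 to 17.5 Mb on chromosome 22. The windows carry a working name of satellite-rich. No repeat or gene annotation of hg19 was used here, so that name was not checked, and peaks are given by position with no gene.

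N6-methyladenosine (m6A) is a methyl mark that enzymes place on adenosines of messenger and other RNA. In MeRIP-seq an antibody pulls m6A-bearing RNA fragments down, and the pulled-down library (IP) is sequenced beside the unenriched RNA (input). Pericentromeres hold long arrays of satellite DNA, which is built of many near-identical repeats, together with recently duplicated stretches of other sequence. Alpha satellite makes up the centromeres themselves, and human satellites II and III form large blocks beside those of chromosomes 1, 9 and 16. Satellite DNA is mostly silent in normal cells, and satellite RNA is known from stressed cells and from several tumour types, colon cancer among them. Short reads from such repeats can match many places, and hg19 leaves much of the arrays unassembled.

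The series has 10 samples, 1 IP and 1 input for each of 5 established human colon cancer lines. The labels give colorectum for HCT15, HCT116 and HT29 and colon for COLO205 and COLO320DM. All were grown in the same serum-supplemented medium, the labels name no treatment, and total RNA, about 300 µg, was broken into pieces of about 100 nt before 10% was set aside as input. Each line had 1 library of each kind, so differences below compare libraries, no p-value was computed, and the intervals, exact Clopper-Pearson at 95%, cover counting error only. They count each peak as independent, although peaks lay crowded in short stretches, so they may be too narrow.

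The IP depth, recovered from the lists, was between 1.38 and 2.99 M reads (M for mega) in HCT116, COLO320DM, HT29 and COLO205, and 5.02 M in HCT15. The inputs had between 1.61 M reads in HCT15 and 5.41 M in COLO205. HCT15 stood apart, with 905 peaks against 8638 to 9835 in the other lists, and it was the only line whose IP was deeper than its input. Whether its libraries are as labelled was not tested, which bears on every HCT15 value. HCT15 read counts below are unscaled, whereas the caller weighted each as 0.322 of a read.

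The lines differed in how much of their peak list lay beside the centromeres. The windows took 664 peaks of COLO205, 487 of HT29, 296 of HCT116, 189 of COLO320DM and 149 of HCT15. As a share of each list the order was another. The windows held 16.5% of HCT15 peaks (14.1% to 19.04%), 6.75% of COLO205 peaks (6.26% to 7.27%), 5.51% of HT29 peaks (5.05% to 6.01%), 3.22% of HCT116 peaks (2.86% to 3.60%) and 2.19% of COLO320DM peaks (1.89% to 2.52%). No 2 of these intervals, which take each peak as independent, overlapped. The lists were also made equally long by taking the 905 strongest peaks of each by −log10 p. HCT15 has 905 peaks in all, so its 16.5% could not change. HT29 then had 9.39%, COLO205 7.29%, HCT116 2.87% and COLO320DM 0.884%. In these shortened lists HT29 stood above COLO205, on 85 and 66 window peaks, and COLO320DM had 8. No intervals were computed for these shares. The order of HT29 and COLO205 is thus not settled, nor is the place of COLO320DM against the 1.44% that the windows take of the chromosome spans.

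The peaks were spread unevenly over the windows. COLO205 had most peaks in 10 of the 13 windows, counting the chromosome 9 window, where it tied with HT29. The chromosome 4 and chromosome 10 windows held 403 peaks each. On chromosome 4 COLO205 had 154 peaks, HT29 114, HCT116 72, HCT15 48 and COLO320DM 15. On chromosome 10 COLO205 had 166, HT29 99, HCT116 68, COLO320DM 52 and HCT15 18. Per Mb of full window length, peak-free stretches included, the chromosome 21 window was the densest, with 137 peaks per Mb over all lists. It had 80 peaks in COLO205, 75 in HT29, 46 in HCT116, 34 in COLO320DM and 26 in HCT15. The small 16q window followed with 107 per Mb. Of its 75 peaks 43 were from COLO205, 19 from HT29, 6 from HCT116, 5 from HCT15 and 2 from COLO320DM. The chromosome 4 and chromosome 10 windows hold peak-free stretches of 3.05 and 3.20 Mb. Densities without such stretches were not computed, and their order may differ. On chromosome 2, COLO205 had 64 of 125 peaks, HT29 31, HCT116 15, COLO320DM 9 and HCT15 6.

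**Figure D1:**
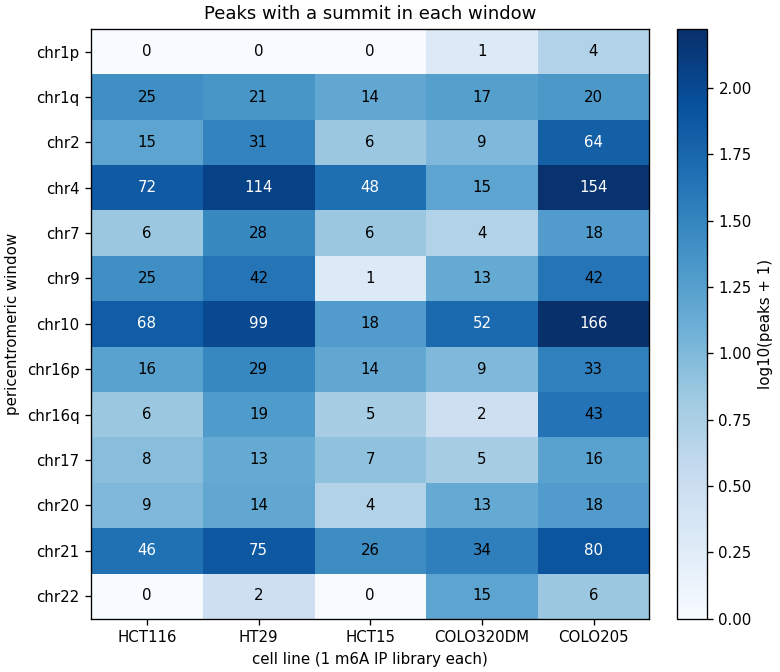
Number of peaks with a summit in each window (rows, named by chromosome and, where there are 2 windows, arm) in each line's list (columns, 1 IP library each). The number stands in each cell and shading follows log10 of the number plus 1. Chromosomes 4, 10 and 21 are the fullest rows, COLO205 reaches 166 peaks on chromosome 10, and the chromosome 22 row is filled mainly by COLO320DM.

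Other windows ranked the lines in other orders. In the 1q window the lists had nearly equal numbers, with 25 peaks in HCT116, 21 in HT29, 20 in COLO205, 17 in COLO320DM and 14 in HCT15. On chromosome 7 HT29 led with 28 peaks, ahead of COLO205 with 18, HCT116 and HCT15 with 6 each and COLO320DM with 4. On chromosome 9 HT29 and COLO205 had 42 each, HCT116 25, COLO320DM 13 and HCT15 1. Chromosome 20 had 18 peaks in COLO205, 14 in HT29, 13 in COLO320DM, 9 in HCT116 and 4 in HCT15, and chromosome 17 had 16, 13, 5, 8 and 7 in the same order of lines. In the 16p window COLO205 had 33 peaks, HT29 29, HCT116 16, HCT15 14 and COLO320DM 9. On chromosome 22 COLO320DM had 15 of 23 peaks, COLO205 6 and HT29 2, and HCT116 and HCT15 had none. The 1p window was nearly empty, with 4 peaks in COLO205 and 1 in COLO320DM.

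Within a window the peaks crowded into short stretches. Of 445 bins of 100 kb, any unassembled ones included, 123 held a peak of any list. The 5 fullest bins held 728 of the 1785 peaks, or 40.8%. The fullest bin, on chromosome 4 from 49100001 to 49200000, held 97 peaks of COLO205, 65 of HT29, 48 of HCT116, 30 of HCT15 and 5 of COLO320DM. COLO205 peaks covered 16.8% of its bases and HT29 peaks 10.5%. Next came chromosome 10 from 42300001 to 42400000, with 78 peaks in COLO205, 53 in HT29, 22 in HCT116, 6 in HCT15 and 4 in COLO320DM. On chromosome 21 from 10700001 to 10800000 HT29 had 36 peaks, COLO205 34, HCT116 21, HCT15 13 and COLO320DM 4.

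Each other window had a crowded bin of its own. On chromosome 17 the bin from 25200001 to 25300000 held 42 of the window's 49 peaks, or 85.7%. The bins from 89800001 to 89900000 on chromosome 2, with 80 peaks, from 57500001 to 57600000 on chromosome 7, with 40, and from 33800001 to 33900000 in the 16p window, with 59, held 64.0%, 64.5% and 58.4% of their windows' peaks. On chromosome 20 the bin from 29800001 to 29900000 held 32 of 58 peaks, in the 16q window that from 46400001 to 46500000 held 41 of 75, and in the 1q window that from 142500001 to 142600000 held 45 of 97. On chromosome 22 the bin from 16100001 to 16200000 held 12 of 23 peaks, and in the 1p window that from 121100001 to 121200000 held 4 of 5. Chromosome 9 was the least crowded window, and its fullest bin, from 69700001 to 69800000, held 17 of 123 peaks, or 13.8%.

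Between these bins lay long stretches with no peak in any list. They reached 3.85 Mb on chromosome 7, 3.45 Mb on chromosome 20, 3.20 Mb on chromosome 10 and 3.05 Mb on each of chromosomes 4 and 17. How much of these stretches is unassembled in hg19 was not tested. Neighbouring summits of the same list were a median of 633 nt apart in COLO205, 881 nt in HT29, 1562 nt in HCT116, 1754 nt in HCT15 and 5126 nt in COLO320DM. The 5 fullest bins of each list took 53.0% of HCT15 window peaks, 43.6% of HCT116, 43.3% of HT29, 43.2% of COLO205 and 30.7% of COLO320DM window peaks. COLO320DM also led in a bin where HCT116, HT29 and HCT15 had few peaks. On chromosome 10 from 38700001 to 38800000 it had 16 peaks, against 3 in HCT116, 4 in HT29, 0 in HCT15 and 11 in COLO205, a bin picked after its values were seen. All 16 were input-poor in the sense defined next, with a median of 3.5 IP reads, while 10 of the 11 COLO205 peaks there were input-covered, with a median of 15 reads.

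**Figure D2:**
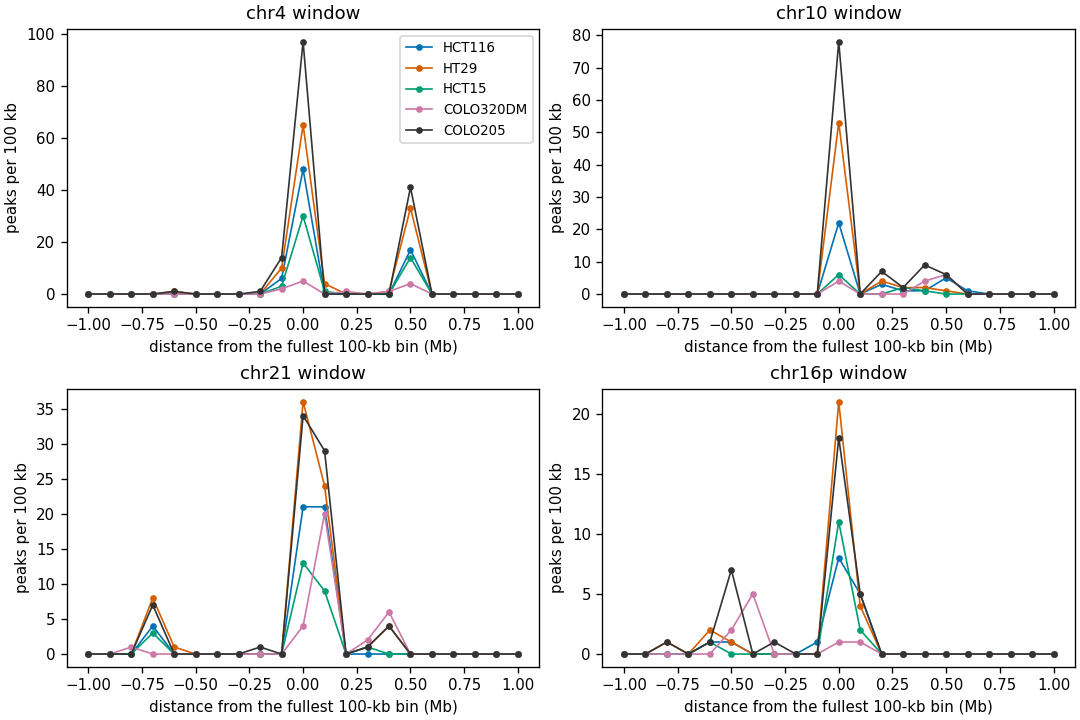
Peaks per 100 kb (vertical axis) against distance in Mb from the fullest bin (horizontal axis) in 4 windows, 1 line of points per cell line. In the chromosome 4 window COLO205 reaches 97 peaks in 1 bin and COLO320DM 5, and a smaller group of up to 41 peaks lies apart from it.

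The caller sets each peak against a local background from the control library, taken here to be the line's input, and that background was recovered from the deposited values. Peaks with a background of 1 input fragment or more are termed input-covered here and all others input-poor. Input covered 62.2% of all COLO320DM peaks, 58.0% of HCT116, 51.4% of COLO205, 38.7% of HT29 and 20.1% of HCT15 peaks. In the windows COLO320DM had 24.9% (18.9% to 31.7%), COLO205 85.1% (82.2% to 87.7%), HT29 75.2% (71.1% to 78.9%) and HCT15 69.8% (61.7% to 77.0%). HCT116 had 148 of its 296 window peaks input-covered (44.2% to 55.8%). Outside the windows COLO320DM had 63.1%, HCT116 58.3%, COLO205 49.0%, HT29 36.5% and HCT15 10.3%. The lists that were poorest in input elsewhere, HCT15 and HT29, were thus among the richest in the windows, and COLO320DM turned from the richest to the poorest. COLO205 and COLO320DM, which share the label colon, stood at the opposite ends in the windows. The intervals inside and outside did not overlap in any of the 5 lines. In HCT116 they came close by this measure, with 57.3% to 59.3% outside. These intervals take crowded peaks as independent. Leaving out 1 window could move the inside share of every line beyond its own interval, as given below.

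**Figure D3:**
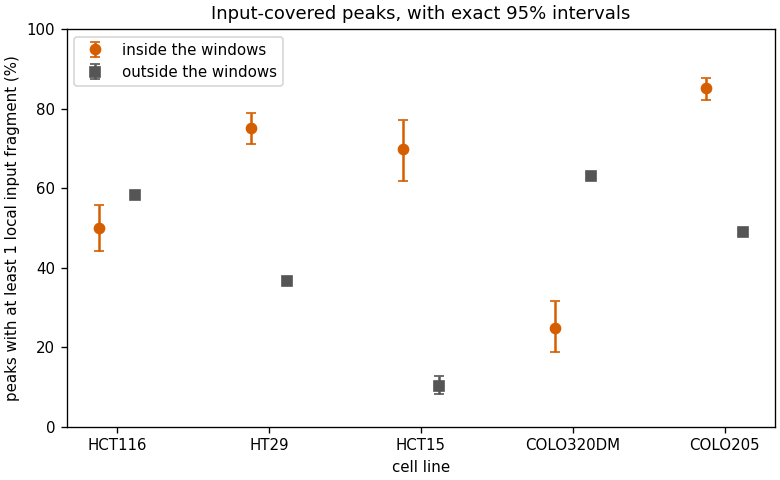
Share of peaks with a local background of at least 1 input fragment (vertical axis, percent) inside (circles) and outside (squares) the windows, by line. Bars are exact 95% intervals for counting error. HT29, HCT15 and COLO205 are higher inside than outside, COLO320DM is lower inside, at 24.9% against 63.1%, and HCT116 differs least by this measure.

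The input depths differ between lines, so the local background was also set per M input reads. The median in the windows was 1.85 fragments per M in COLO205, 1.29 in HT29, 1.01 in HCT15, 0.390 in HCT116 and 0.0320 in COLO320DM. Outside the windows it was 0.152, 0.0726, 0.0459, 0.502 and 0.705. With 1 threshold for all lists, 0.620 fragments per M, input covered 71.4% of window peaks in COLO205, 69.8% in HCT15, 63.9% in HT29, 28.0% in HCT116 and 18.0% in COLO320DM. Outside the windows the same threshold gave 16.2%, 10.3%, 23.8%, 47.5% and 51.1% in this order, so the gap in HCT116 was wider than with each list's own fragment. The IP side moved the same way, but it is no separate evidence. A called peak must stand above its background, and both values come from the same 2 deposited values. At the summits the median count of IP reads was 29 inside against 8 outside for COLO205, 21 against 7 for HT29 and 47 against 17 for HCT15. For HCT116 it was 9 against 11 and for COLO320DM 4 against 12. Under 5 reads lay behind 50.3% of COLO320DM window peaks, 26.0% of those of HCT116, 6.57% of HT29 and 4.22% of COLO205. Outside the windows the shares were 19.7%, 25.1%, 17.7% and 14.5%, so HCT116 was near its usual share and HT29 and COLO205 were lower inside.

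By window, input covered nearly all chromosome 4 peaks of 4 lines. It covered 153 of 154 in COLO205, 108 of 114 in HT29, 47 of 48 in HCT15 and 65 of 72 in HCT116, against 3 of 15 in COLO320DM. On chromosome 10 it covered 157 of 166 COLO205 peaks and 91 of 99 HT29 peaks, but 28 of 68 in HCT116, 10 of 18 in HCT15 and 1 of 52 in COLO320DM. On chromosome 21 it covered 76 of 80 in COLO205, 55 of 75 in HT29, 13 of 26 in HCT15, 10 of 46 in HCT116 and 6 of 34 in COLO320DM. Chromosome 9 differed from all of these. There input covered 6 of 42 peaks in COLO205, 5 of 42 in HT29, 0 of 25 in HCT116 and 0 of 1 in HCT15. COLO320DM had the largest share, 6 of 13. The 0 of 25 allows up to 12% when 3 counts of the total are taken as the limit of a 0, and up to 13.7% by the exact interval. Leaving out each window in turn kept the share of input-covered peaks between 80.8% and 89.9% in COLO205, 69.2% and 81.1% in HT29, 56.4% and 74.0% in HCT15, 37.1% and 55.2% in HCT116, and 20.1% and 33.6% in COLO320DM. The lowest values of the first 4 were those without chromosome 4, and that of COLO320DM the one without chromosome 22.

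Just outside the windows COLO205, HT29 and HCT15 had lower shares of input-covered peaks than just inside, and HCT116 and COLO320DM higher ones. Within 500 kb beyond the window bounds COLO205 had 31 peaks, 29.0% of them input-covered, and HT29 had 32, of which 8 were input-covered. HCT15 had 8, of which none was input-covered, which allows a share of up to 37.5% by the same 3 counts, HCT116 had 44, with 47.7%, and COLO320DM 31, with 61.3%. Within 500 kb inside the bounds the shares were 80.2% of 162 peaks, 64.1% of 103, 48.6% of 35, 32.4% of 68 and 33.0% of 97, for COLO205, HT29, HCT15, HCT116 and COLO320DM. The 1p and 16q windows, 1 and 0.7 Mb long, count in full as just inside. From 16q alone came 43 COLO205 and 19 HT29 peaks, of which 41 and 17 were input-covered. It added 6 peaks in HCT116, 5 in HCT15 and 2 in COLO320DM, of which 2, 5 and 1 were input-covered. COLO205 peaks just inside and just outside had median folds of 4.99 and 5.54, those of HT29 5.67 and 6.09, of HCT15 6.19 and 5.42, of HCT116 5.49 and 5.46, and of COLO320DM 4.81 and 6.14.

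The fold enrichment, the authors' ratio of summit signal over the caller's background, was not raised in the windows in all lines. The median fold inside was 4.43 in COLO205 against 5.80 outside, 5.22 against 5.67 in HT29 and 4.80 against 5.23 in COLO320DM. It was 5.72 against 5.06 in HCT116 and 5.81 against 5.71 in HCT15. The highest window folds were 17.5 in HT29, 15.5 in HCT116, 15.2 in HCT15, 14.3 in COLO205 and 12.7 in COLO320DM, whereas outside they reached 18.3 in HCT15 and 29.8 to 40.7 in the other lists. With 1 library per line these differences have no replicate check. Above 1 input fragment, window folds were lower in the classes of higher background in each list, as they also were outside the windows. The calling sets part of this order. Background is the divisor of the fold, and low folds pass the caller only where background is high. In COLO205 the median was 5.54 over 99 input-poor peaks, 6.18 over 120 peaks with 1 to under 5 input fragments, 4.43 over 254 with 5 to under 20, and 3.32 over 191 with 20 or more. Outside the windows COLO205 gave 5.54, 6.44, 4.87 and 3.14 in these classes. HT29 gave 5.67, 7.13, 4.46 and 2.997 inside and 5.67, 6.22, 4.26 and 2.78 outside. Of the 5 lists, input-poor window peaks extended this order only in HCT15, with a median of 7.60 against 5.59 at 1 to under 5 fragments. In HCT116 and COLO320DM their medians were 4.81 and 4.77, against 6.81 and 6.46 in the next class. Backgrounds of 20 or more fragments lay under 28.8% of COLO205 window peaks and 1.44% of its peaks elsewhere, and under 10.3% and 1.02% in HT29.

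**Figure D4:**
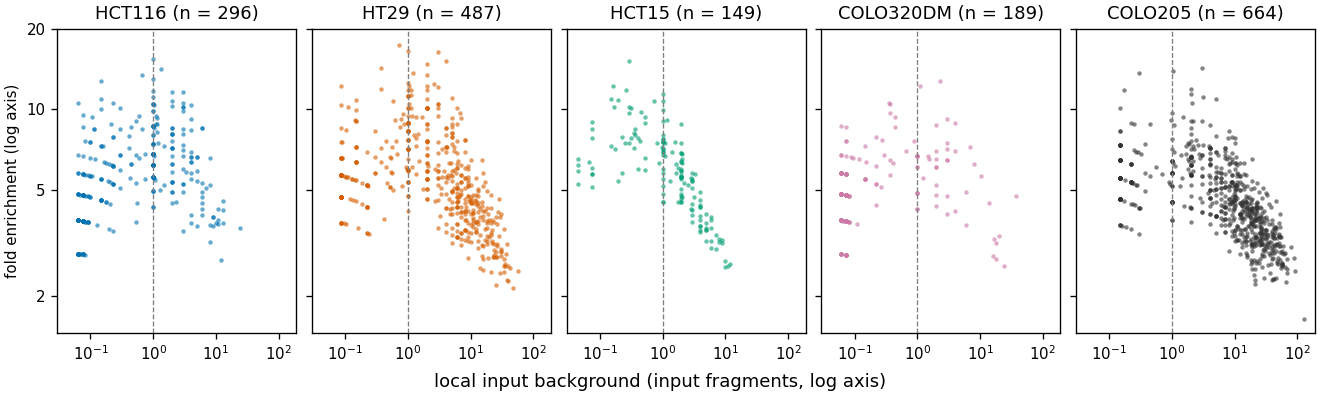
Fold enrichment (vertical axis, log scale) against local background in input fragments (horizontal axis, log scale) for every window peak, 1 panel per line, with the dashed line at 1 fragment. In HT29, HCT15 and COLO205 the folds slope down to the right of that line, and most COLO320DM points lie to its left. Fold and background come from the same 2 deposited values of a peak.

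At chromosome 4 from 49100001 to 49200000 the lines could be set side by side in 1 place. COLO205 had a median fold of 3.45, 52 IP reads and 25 input fragments over its 97 peaks. HT29 had 4.18, 34 reads and 10 fragments, HCT15 4.33, 58 reads and 3 fragments, and HCT116 6.79, 15 reads and 2 fragments. COLO320DM had 4.75, 4 reads and 0.0803 fragments over its 5 peaks. Per M input reads the backgrounds were 4.62, 3.23, 1.86, 0.892 and 0.0353. The median background was thus above 1 input fragment in the first 4 lines and below it in COLO320DM. The COLO320DM median was still above the lowest background of its list, the genome mean of 0.0616 fragments. Chromosome 10 from 42300001 to 42400000 was alike, with 4.07 fragments per M in COLO205, 3.87 in HT29, 4.03 in HCT15, 1.19 in HCT116 and 0.0320 in COLO320DM. These values exist only where a list has a peak, so they do not give the input level elsewhere in the bin.

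Which of these peaks the lines had in common was read from overlaps of at least 1 nt. Such overlaps come more easily where lists are dense, as in the fullest bins, and this was not corrected for. Over whole lists, 94.4% of HCT15 peaks, 65.1% of COLO205, 63.7% of HT29, 61.6% of HCT116 and 52.9% of COLO320DM peaks overlapped a peak of any other list. In the windows HCT15 had 94.0% (88.8% to 97.2%), HCT116 80.4% (75.4% to 84.8%), HT29 76.6% (72.6% to 80.3%), COLO205 62.0% (58.2% to 65.8%) and COLO320DM 35.4% (28.6% to 42.7%). HCT116 and HT29 were above their shares outside, 61.0% and 63.0%, and COLO320DM was below its 53.2%, with no overlap of the intervals. HCT15 and COLO205 were close to their 94.4% and 65.4%, within overlapping intervals.

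Overlaps were also read pair by pair, again with no correction for how densely the other list fills a place. HT29 had a peak at 63.9% of HCT116 window peaks and 35.3% of HCT116 peaks elsewhere, and COLO205 at 71.3% and 40.3%. COLO320DM had one at 8.78% and 39.9% of them. Of HT29 window peaks, 71.3% lay on a COLO205 peak and 7.19% on a COLO320DM peak, against 51.1% and 27.8% elsewhere. Of COLO205 window peaks, 52.3% lay on an HT29 peak, 31.0% on an HCT116 peak and 7.53% on a COLO320DM peak, against 47.4%, 39.1% and 31.3% elsewhere. HT29 peaks lay on HCT116 peaks in 37.2% of cases inside and 37.3% elsewhere. HCT15 peaks lay on HT29 peaks in 83.9% of cases in the windows and 85.6% elsewhere, on COLO205 peaks in 83.9% and 77.5%, and on COLO320DM peaks in 10.7% and 5.29%. HCT15 peaks were at 25.3% of HCT116 window peaks and 3.51% of HCT116 peaks elsewhere.

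Input-covered window peaks were mostly shared, except in COLO320DM. Of these, 139 of 148 in HCT116, 323 of 366 in HT29, 101 of 104 in HCT15 and 382 of 565 in COLO205 overlapped another list, or 93.9%, 88.3%, 97.1% and 67.6% (63.6% to 71.5%). Outside the windows these shares were 71.0%, 86.8%, 96.2% and 74.7% (73.4% to 76.0%), so HCT116 was higher inside, HT29 and HCT15 were close to their usual share, and COLO205 was lower. In COLO320DM it was 11 of 47, or 23.4% (12.3% to 38.0%), against 68.9% of its input-covered peaks outside the windows. Input-poor window peaks were shared in 86.7% of cases in HCT15, 66.9% in HCT116, 41.3% in HT29, 39.4% (31.3% to 48.0%) in COLO320DM and 30.3% (21.5% to 40.4%) in COLO205. Outside the windows the shares were 94.2%, 47.0%, 49.2%, 26.5% (24.9% to 28.1%) and 56.4% (54.9% to 57.8%). COLO320DM and HCT116 were thus higher inside and COLO205 lower, while the intervals of HT29 and HCT15 overlapped. COLO320DM was the only line of the 5 in which the input-poor window peaks had the larger share, with overlapping intervals.

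Overlapping peaks merged into 986 regions in the windows. A single list held 555 of them, 2 lists held 212, 3 held 141, 4 held 69 and all 5 held 9. Regions in 4 or more lists made up 7.91% (6.30% to 9.77%) inside and 8.39% outside. Regions of all 5 lists made up 0.913% inside, and 20 regions or 0.0938% outside. Regions of 1 list made up 56.3% inside and 64.4% outside. The largest sets were COLO205 alone with 252 regions, COLO320DM alone with 122, HT29 with COLO205 with 120, HT29 alone with 114, and HCT116, HT29 and COLO205 together with 89. HCT116, HT29, HCT15 and COLO205 without COLO320DM shared 55. Of the regions with a COLO320DM peak, 64.9% were in no other list, against 39.0% for COLO205, 24.2% for HT29, 20.6% for HCT116 and 6.62% for HCT15. By window, chromosome 4 had 27 regions of 4 lists and none of 5, chromosome 21 had 15 and 4, and the 16p window 8 and none. Chromosome 9 had 69 of 92 regions in 1 list, and chromosome 22 had 18 of 20.

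At regions held by the same lines, values could be paired. HCT116, HT29, HCT15 and COLO205 all had a peak at 64 regions. The median background there was 0.446 fragments per M in HCT116, 1.24 in HCT15, 2.21 in HT29 and 2.68 in COLO205. It was lowest in HCT116 at 60 of the 64 regions, and highest in COLO205 at 42 and in HT29 at 20. IP reads per M were 7.97 in HCT116, 11.4 in HCT15, 14.4 in COLO205 and 16.2 in HT29. The median fold ran nearly the other way, with 6.72 in HCT116, 5.85 in HCT15, 5.55 in HT29 and 4.36 in COLO205. HCT116 had the highest fold at 28 regions, and COLO205 the lowest at 31. Between HCT116 and HT29, which shared 177 regions, HT29 had the higher background at 170 and the higher IP level at 169, and HCT116 the higher fold at 106. Between HT29 and COLO205, with 331 regions, COLO205 had the higher background at 227, HT29 the higher IP level at 185 and the higher fold at 210.

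**Figure D5:**
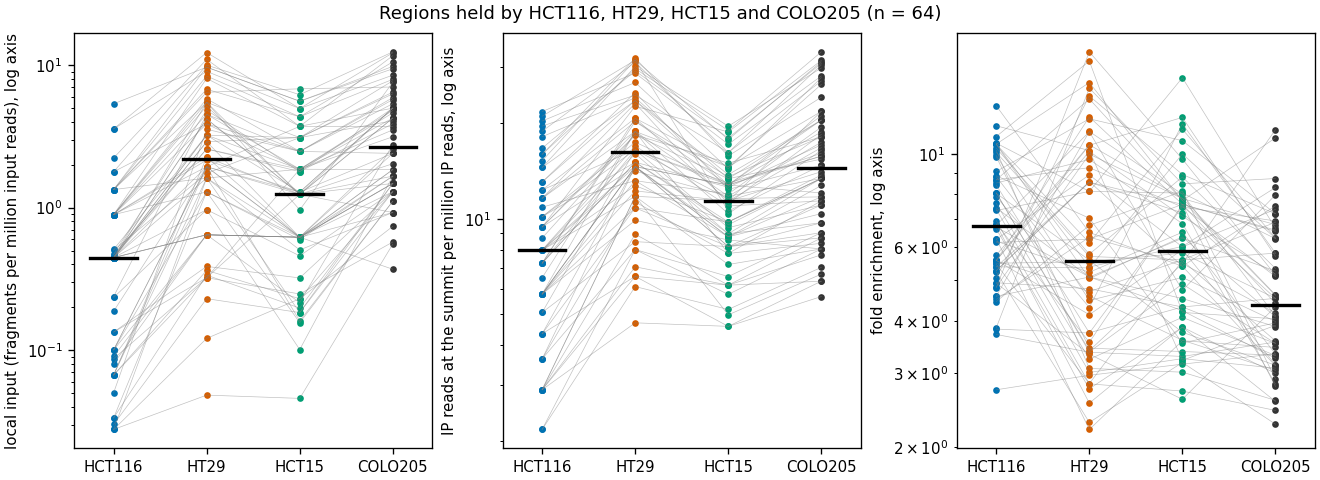
Local background (left), IP reads (middle) and fold enrichment (right) at the 64 window regions held by HCT116, HT29, HCT15 and COLO205, on log axes. Each grey line is 1 region, points are its values by line and black bars are medians. Background and IP level are lowest in HCT116, with medians of 0.446 and 7.97 per M, while its median fold of 6.72 is the highest of the 4 lines.

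COLO320DM had a peak at 18 regions together with HCT116, HT29 and COLO205. Its median background there was 0.0320 fragments per M, against 1.12 in HCT116, 3.60 in COLO205 and 4.52 in HT29, and it was the lowest of the 4 lines at 14 regions. Its IP level was 3.39 reads per M, against 14.9, 18.4 and 21.4. Its median fold, 5.29, nevertheless lay between the 4.22 of COLO205 and the 8.88 of HCT116. Folds of like size in these regions thus stood on fewer reads in COLO320DM, in IP and input alike.

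Over all windows, 36 of 47 input-covered COLO320DM peaks were unshared. Most of those with 5 or more input fragments lay in the 16p and chromosome 22 windows. In the 16p window COLO320DM had 6 input-covered peaks, none shared, with 31 to 117 IP reads and 7 to 37 input fragments. The strongest, from 33405755 to 33405949, had a fold of 4.73, 117 reads and 37 fragments, the highest −log10 p of its window peaks, 42.2, which ranked 22 in the whole list. Next to it lay peaks from 33405167 to 33405347, with a fold of 4.48 and 44 reads, and from 33405508 to 33405613, with a fold of 5.64 and 43 reads. On chromosome 22 it had 12 input-covered peaks, of which 10 were unshared. From 16154743 to 16157962 lay 5 of the 12, with folds of 2.77 to 6.23, 34 to 46 reads and 7.88 to 20 fragments. Among them, those from 16155875 to 16156404 and from 16157246 to 16157420 were shared. A second group had folds of 6.98, 8.92 and 6.97 from 16335961 to 16337058. Of the 13 COLO320DM window peaks with 5 or more input fragments, 12 were in the 16p or chromosome 22 window. These COLO320DM positions other than the first, and these groups, were picked after their values were seen.

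Among the regions held by most lists, 5 were in all 5 lists. The region on chromosome 7 from 57547535 to 57547664 had 7 IP reads in HCT116 with a fold of 7.32, 35 in HT29 with 8.13, 58 in HCT15 with 15.2, 3 in COLO320DM with 3.85 and 35 in COLO205 with 6.65. The HCT15 peak in it, from 57547544 to 57547658, was first by fold among that line's window peaks and ranked 3 by −log10 p in the whole HCT15 list. It was input-poor, at 0.296 fragments, while HT29 had 5 fragments there and COLO205 8. The region on chromosome 10 from 42356649 to 42356851 showed the opposite. Its fold was 10.2 in HCT116 with 28 reads and 3 fragments, but 3.08 in HT29, 3.02 in HCT15 and 2.59 in COLO205, with 57, 72 and 83 reads and with 26, 7 and 57 fragments. COLO320DM had 3 reads and a fold of 3.82. The chromosome 2 region, from 89879791 to 89879969, had a fold of 9.83 over 3 fragments in HCT116, 3.44 over 21 in HT29, 3.38 over 7 in HCT15, 6.62 over 0.0876 in COLO320DM and 3.31 over 43 in COLO205.

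The other 2 lay on chromosomes 17 and 21. The region on chromosome 17 from 25267643 to 25267960 had 5 reads in COLO320DM, 22 in HCT116, 68 in HT29, 72 in COLO205 and 79 in HCT15. That on chromosome 21 from 10805333 to 10805563 had 4, 10, 32, 40 and 49 reads in the same order of lines, with folds of 4.77, 10.1, 5.69, 6.87 and 5.59. In each of the 5 regions COLO320DM had the fewest reads, between 3 and 6, and a background under 0.1 fragments.

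In the other windows the region held by most lists lacked 1 line or more. Lists other than COLO320DM had one on chromosome 4 from 49125359 to 49125734, with folds of 5.09 to 7.43, in the 16p window from 33865016 to 33865393, with 6.91 to 9.26, on chromosome 20 from 29829355 to 29829740, with 3.37 to 8.07, and on chromosome 9 from 68418936 to 68419560. There the fold was 14.3 in HT29, 8.73 in COLO205, 8.48 in HCT15 and 3.85 in HCT116, the last on 3 reads. In the 1q window, from 143912639 to 143913044, HCT15 was the line without a peak. COLO320DM had 26 reads and 3 fragments there and a fold of 9.18, close to the 9.24 of HCT116, the 9.66 of COLO205 and the 11.9 of HT29. In the 16q window 3 lists met from 46423011 to 46423113, with folds of 6.30 in HCT116, 9.39 in HT29 and 4.67 in COLO205. On chromosome 22, from 16155875 to 16156404, the folds were 3.37 in COLO320DM, 3.60 in HT29 and 11.9 in COLO205, over 20, 3 and 2 fragments. In the 1p window COLO320DM and COLO205 met from 121133893 to 121134088, with 6 and 4 reads.

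The strongest peaks of each list lay in different windows. In HCT116 the top 2 by fold and by −log10 p were on chromosome 4, from 49098813 to 49098905 with 24 reads and a fold of 15.5, and from 49105581 to 49105700 with 25 reads and 14.2. The peak at rank 3 by −log10 p lay between them, from 49100187 to 49100277, with a fold of 11.6. That at rank 3 by fold was on chromosome 9, from 66457416 to 66457591, with 13.4, and overlapped the top COLO320DM peak by fold, from 66457475 to 66457696, with 12.7 and 31 reads. In COLO320DM a chromosome 2 peak from 91816351 to 91816560 followed with 12.3, then a chromosome 17 peak from 25415139 to 25415765 with 10.6. Rank 3 by −log10 p was in the 16p window, from 33394625 to 33394939, with a fold of 7.24.

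HT29 had its highest window folds on chromosome 21, from 10797796 to 10798204 with 17.5 and from 10795674 to 10795884 with 16.6, and in the 1q window from 142542304 to 142542428 with 16.4. The highest −log10 p in its windows, 52.8, was on chromosome 21 from 10084922 to 10085207, with 56 reads and a fold of 15.2, followed by that 1q peak and by chromosome 10 from 42597780 to 42597865, with a fold of 11.1. HCT15 had 2 of its top 3 by either measure side by side on chromosome 7, the second from 57547822 to 57547925 with a fold of 12.2. Rank 3 was on chromosome 21, by fold from 10086238 to 10086526 with 11.8 and by −log10 p from 10856044 to 10856134 with 11.4. The latter overlapped a peak of every other list.

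COLO205 had its highest window folds in the 16p window, from 33888505 to 33888690 with 14.3 and 37 reads, on chromosome 20 from 29520636 to 29520816 with 13.9, and on chromosome 2 from 91738263 to 91738515 with 13.7. By −log10 p its first were on chromosome 10, from 42392657 to 42392762 with 117 reads over 45 fragments and a fold of 4.57, and from 39128814 to 39128907 with 74 reads over 19 fragments and a fold of 6.53. Rank 3 was the 16p peak. Its weakest window fold, 1.65, was in the 1p window from 121485273 to 121485362, where 117 reads stood over 128 input fragments, the highest background of all 1785 peaks. No other list had a peak there, and this peak was picked after its values were seen.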

How the data were processed

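Peaks of 5 m6A IP libraries were analysed, and the inputs entered only through the lists. MACS2, BWA, cutadapt and FastQC, on build hg19, are named without versions or parameters per the submitters' processing notes, and how reads with several matches were placed is not given in the sources used here. The authors' deposited lists give a fold enrichment (a ratio), a −log10 p, a −log10 q, a score and positions. Starts are printed counting from 1. Peaks were called per library.

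IP reads and local background were recovered from each peak's fold and −log10 p, as fold = (reads + 1) / (background + 1) with a Poisson p. A whole read count met 100% of peaks within 0.001, in HCT15 with each read weighted 0.322. On 600 simulated peaks for each scaling, 100% were recovered. Those peaks were made with the same formula and a known read weight, so this checks the inversion and not the caller's model. Depth assumes a genome of 2.7 Gb. The control was taken to be the input, which no source states.

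A summit at the deposited start plus offset placed a peak in a window. Overlaps needed 1 nt. Sharing among peaks outside the windows was measured the same way. The named peaks were the region held by most lists in each window, the 3 highest by fold and by −log10 p in each list and the fullest 100-kb bin. Windows, members and rules were chosen with earlier results of these data known. Scripts ran in Python 3.11.15 with matplotlib 3.10.9, scipy 1.17.1, pandas 2.3.3 and numpy 2.4.6. With 1 library per line no test was made.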

Additional observations from a re-analysis of the deposited data

How the results depend on the processing

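With 1 library per line, no replicate could be left out and no paired analysis was possible because each line had 1 library. Placing peaks by any overlap with a window changed no count. Mainly the larger changes are printed in this section, and lines not named at a setting mostly moved less. Depth limits the lists at the low end, where peaks stand on 2 or 3 reads, and a background below 1 fragment does not show that a place is without input. With a −log10 q of at least 5, the window peaks numbered 181 in HCT116, 73 in HCT15 and 88 in COLO320DM, and with a fold of at least 4 they numbered 122 in COLO320DM and 408 in COLO205.

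The windows' share of each list was, at that q, 19.7% in HCT15, 8.47% in COLO205, 3.65% in HCT116, 6.98% in HT29 and 1.87% in COLO320DM. At that fold it was 4.69% in HT29, 14.1% in HCT15 and 4.70% in COLO205. With the 905 strongest peaks of each list it was 9.39% in HT29, 0.884% in COLO320DM and 7.29% in COLO205. Without the chromosome 4 window it was 2.43% in HCT116, 4.22% in HT29, 11.2% in HCT15 and 5.19% in COLO205. Without that of chromosome 10 it was 1.59% in COLO320DM, 2.48% in HCT116, 5.06% in COLO205 and 4.39% in HT29. HCT15 had the highest share and COLO320DM the lowest under each of these. With the 905 strongest peaks the HCT15 list was whole, so its own share was fixed there.

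The median fold at that q was 6.81 in HCT116, 5.67 in HT29, 7.51 in HCT15 and 6.18 in COLO320DM, and without chromosome 4 it was 5.38, 5.67 and 6.34 in the first 3 and 4.68 in COLO205.

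The share of input-covered peaks with 1 threshold for all lists was 18.0% in COLO320DM, 63.9% in HT29, 28.0% in HCT116 and 71.4% in COLO205. At that q it was 33.0%, 80.9%, 63.5% and 89.5% in the same lines and 56.2% in HCT15. HCT116 then passed HCT15. Without chromosome 4 it was 37.1% in HCT116, 69.2% in HT29, 56.4% in HCT15 and 80.8% in COLO205, and without chromosome 10 it was 70.9% in HT29, 33.6% in COLO320DM and 81.9% in COLO205.

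The share of window peaks that overlap another list, with reciprocal overlap of 50%, was 77.2% in HCT15, 65.2% in HCT116, 64.9% in HT29, 50.3% in COLO205 and 22.2% in COLO320DM. With summits within 100 nt it was 75% in HCT116, 71.7% in HT29 and 56.9% in COLO205. At that q it was 86.2% in HCT116. With the 905 strongest peaks it was 67.1% in HT29, 35.6% in HCT15 and 56.1% in COLO205. COLO320DM had 8 window peaks left there, with 37.5%. Those lists hold fewer peaks to overlap.

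Regions in 4 or more lists went from 78 to 44 with reciprocal overlap of 50%, 64 with summits within 100 nt, 29 at that q and 36 at that fold. With a list left out, the regions in all 4 others numbered 14 without HCT116, 8 without HT29, 18 without HCT15, 64 without COLO320DM and 8 without COLO205. Other than where shown, the cause of a change was not tested.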
